A study of Mus musculus with 3 samples.

Results

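The voltage-gated sodium channel, voltage-gated calcium channel and HCN channel subunits of the mouse hippocampus were followed across 3 RNA-seq libraries. Members were all protein-coding genes of the deposited FPKM table (a level per kilobase of gene and per library size) named Scn with a number and a or b, Cacna1 with a letter from a to s, Cacnb1 to Cacnb4, Cacna2d1 to Cacna2d4, or Hcn with a number. This rule uses names only and found 36 genes, among 22046 protein-coding genes and 54532 genes in all. The hippocampus of 10-month-old mice on a C57BL/6 background was profiled in 1 library each of WT, PS19 and PS19 Zbp1+/-, the last labelled heterozygous for Zbp1. The human tau transgene of PS19 mice, which the mouse prion protein promoter drives, is shared by both PS19 libraries and comes on top of the mouse Mapt gene. Zbp1 encodes a sensor of Z-form nucleic acids. The question of the design is what the transgene changes and what a lower Zbp1 dose changes on top of it. With 1 library a genotype there is no replicate check and no p-value, and every difference below is one between 2 libraries. Sex, littermates and pooling of animals are not given in the sources used here.

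Sodium channels open on depolarisation and carry the rising phase of the action potential. The pore-forming alpha subunit suffices for current, and small beta subunits set its gating and surface density. Calcium channels have a related pore, with L-type channels coupling depolarisation to transcription, P/Q-, N- and R-type channels triggering transmitter release, and low-threshold T-type channels shaping bursts. Cytosolic beta and extracellular alpha2delta subunits bring the high-threshold pores to the membrane. HCN channels open on hyperpolarisation, bind cyclic AMP and carry the h-current, which in pyramidal neurons damps dendritic excitability.

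Recovered reads totalled 16400328 to 17109734 a library. The Zbp1 gene took 5 WT reads, 91 PS19 reads and 0 reads in PS19 Zbp1+/-, and 0 reads do not settle whether the label is right. The WT and PS19 libraries held 11062 and 13350 Xist reads and 0 from the Y-linked Ddx3y, while PS19 Zbp1+/- held 0 and 711, so sex and genotype cannot be told apart in its comparisons. Hippocampal identity was checked with 10 excitatory neuron markers, which were detected in every library, with a summed FPKM of 1524 (WT), 1193 (PS19) and 1940 (PS19 Zbp1+/-). Genes near 10 reads were more often at 0 in PS19 Zbp1+/-, which had the most recovered reads. Of 357 genes with 8 to 12 reads in both other libraries, 57 had 0 reads there, or 16% (exact 95% interval 12.3% to 20.2%). Counted the same way, 5 of 234 genes (2.1%) had 0 reads in WT and 1 of 244 (0.41%) in PS19. The interval treats genes of 1 library as independent, which they are not, and the cause of the zeros was not tested. Choroid plexus markers summed to 3445, 2186 and 26.9 FPKM in the same order.

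Of the 36 subunits, 28 reached an FPKM of 1 in at least 1 library, and those described here spanned from 60.4 FPKM for Hcn2 to 0.388 FPKM for Hcn4 in WT. Hcn2, Scn2b and Cacnb3 followed each other in that order in each library. Neighbours in the order could be close, such as Hcn2 at 60.4 and Scn2b at 59.0 FPKM in WT, or Scn2b at 69.3 and Cacnb3 at 68.1 FPKM in PS19 Zbp1+/-, and there is no replicate spread to judge them by. The 8 members under 1 FPKM everywhere included Scn9a, Cacna2d4, Cacna1f, Cacna1s, Scn10a, Scn4a and Scn11a. Most of these are known from skeletal muscle, retina or peripheral sensory neurons. Scn11a had 0 reads in each library, which allows up to 0.0293 FPKM in WT by counting error, and Scn4a had 0, 1 and 5 reads in the order WT, PS19, PS19 Zbp1+/-.

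**Figure D1:**
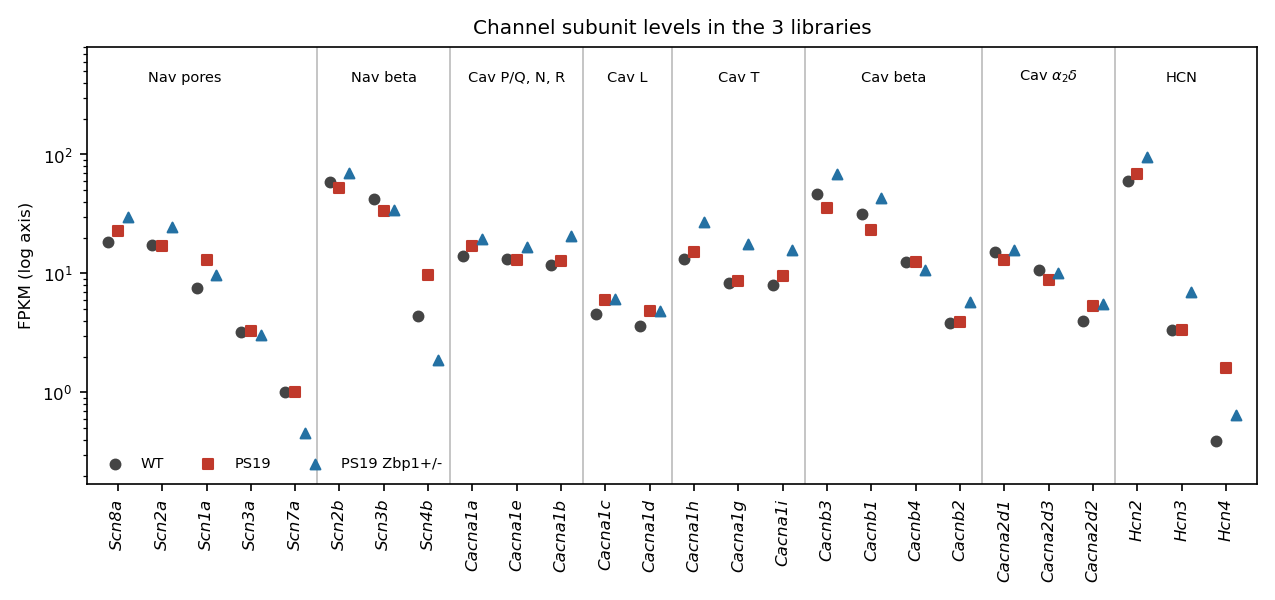
FPKM (log axis) of 26 of the 28 subunits that reached 1 FPKM in a library, grouped into sodium channel (Nav) pores and betas, calcium channel (Cav) pores, betas and alpha2delta subunits, and HCN pores, with 1 point per library and no error since each genotype is 1 library. Among the 26 subunits drawn, Hcn2 is highest in each library at 60.4 to 95.2 FPKM, and the 3 points lie furthest apart for Scn4b and Hcn4.

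Between PS19 and WT, most subunits lay close together, and 3 stood above the others: Scn4b, Hcn4 and Scn1a were higher in PS19. Differences were taken on the log2(FPKM + 1) scale, which understates those of weakly expressed genes, over protein-coding genes that reached an FPKM of 1 in one of the compared libraries. On this scale 0 of the 28 subunits tested were at least 2-fold higher in PS19, where 2.20% of 12703 genes were, and 0 were at least 2-fold lower, against 0.291%. At 1.5-fold, 3 subunits were higher, against 6.34% of all genes, and 0 were lower, against 2.71%; with each library rescaled to the same sum (TPM) this split of 3 to 0 was 4 to 1 of 31 subunits tested, against 13.6% and 2.84% of all genes. The median difference of the subunits was 0.02, beside -0.03 for all genes tested. Of 20 pan-neuronal marker genes, 19 were lower in PS19, with a median difference of -0.31, and relative to that median 8 subunits were 1.5-fold higher, against 17.8% of all genes. Fewer neurons and less RNA per neuron cannot be told apart in bulk tissue, and the part of either in these values was not tested.

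Between PS19 Zbp1+/- and PS19, the calcium channel betas Cacnb3 and Cacnb1, the 3 T-type pores, the N-type pore Cacna1b and Hcn3 were among those higher, and Scn4b and Hcn4 were lower. At 2-fold, 0 of 28 subunits were higher, against 2% of 12772 genes, and 1 was lower, Scn4b, against 5.16%. At 1.5-fold, 8 were higher, against 9.37%, and 2 were lower, against 12.1%. The split of 8 higher to 2 lower depended on the scaling: with TPM it was 4 to 5 of 31 subunits, against 4.97% and 28.4% of all genes. With differences centred on the median of the pan-neuronal markers it was 0 to 5 of 28, against 1.46% and 39.2% of all genes, so the shares of lower calls were under those of all genes in both settings. The median difference was 0.30, beside 0.04 for all genes. All 20 pan-neuronal markers were higher in PS19 Zbp1+/- than in PS19, with a median of 0.50, and the median of the subunits turned to -0.20 relative to them.

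Between PS19 Zbp1+/- and WT, where the PS19 library does not enter, Cacna1g was at the 2-fold threshold, or 1 of 27 subunits tested against 1.07% of 12436 genes, and 0 were 2-fold lower, against 2.28%. The call of Cacna1g was lost with TPM (0.91), total reads (0.86), centring on the pan-neuronal markers (0.71) and correction for GC content and transcript length (0.59). At 1.5-fold, 8 were higher, against 6.71%, among them Hcn2, Hcn3, Scn8a, Cacna1b, Cacna1g, Cacna1h and Cacna1i, and 1, Scn4b, was lower, against 7.12%. Centred on the pan-neuronal markers the split of 8 to 1 was 3 to 3, against 1.82% and 19.9% of all genes. With TPM it was 6 to 2 of 30 subunits, against 6% and 17.1%, and corrected for GC content and transcript length it was 4 to 1, against 3.90% and 6.30%. The median was 0.39, beside 0.01 for all genes, and was 0.10 relative to the pan-neuronal markers, whose own median was 0.29. These 3 comparisons share libraries in pairs, so their values for a gene are not independent.

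**Figure D2:**
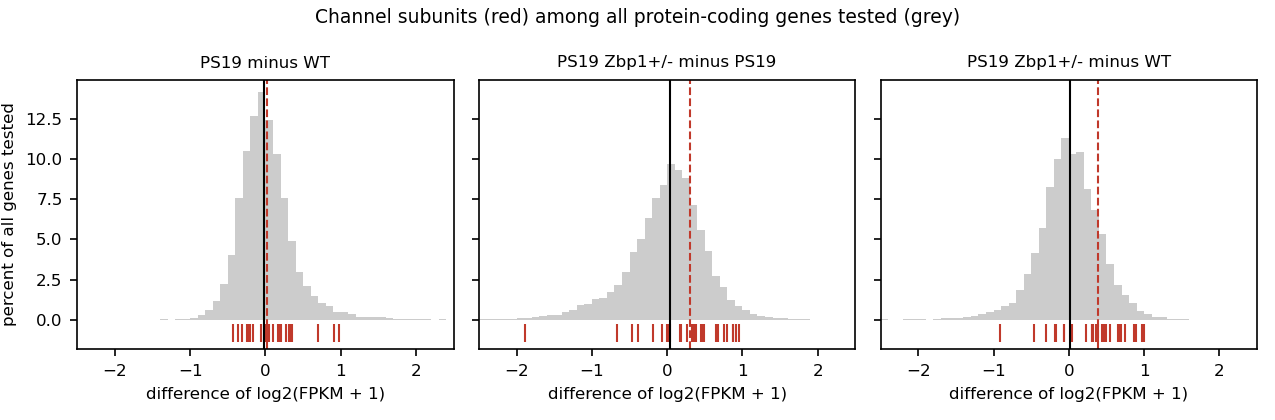
Difference of log2(FPKM + 1) for all protein-coding genes tested (grey bars, percent of genes in each 0.1-wide bin) and for the channel subunits (red ticks), with the median of all genes as a solid black line and that of the subunits as a dashed red line. The subunit median is at 0.02, 0.30 and 0.39 in the 3 panels, and the lone tick far to the left in the middle panel is Scn4b.

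Among the sodium channel pores, the brain types made up nearly all of the expression. Scn8a, the pore of the nodes and axon initial segments of principal neurons, measured 18.2 FPKM (WT), 22.8 (PS19) and 29.6 (PS19 Zbp1+/-), from 4963, 6228 and 7383 reads. It was lowest in WT on every scaling, and highest in PS19 Zbp1+/- except when centred on the pan-neuronal markers, where it differed from PS19 by -0.14. The 1.5-fold call of Scn8a between PS19 Zbp1+/- and WT was lost with TPM, total reads, centring and the GC and length correction (0.38 to 0.53). The read ratio, per library size, was 1.25 between PS19 and WT and 1.62 between PS19 Zbp1+/- and WT (exact Clopper-Pearson 95% interval 1.56 to 1.68). All such intervals reflect counting error alone, as each genotype is 1 library. Reads that carry no molecular identifiers may be copies of 1 molecule, so the intervals may be too narrow even for that. Scn2a, the other main pore of excitatory axons, had 17.4, 17.1 and 24.5 FPKM in the same order. It was level between WT and PS19, at a read ratio of 0.983 (0.94 to 1.03), and higher in PS19 Zbp1+/- than in PS19 at 1.43 (1.37 to 1.49), a difference of 0.49 that was -0.01 when centred on the pan-neuronal markers. Scn3a, a pore most abundant in the embryonic brain, was nearly level, at 3.24, 3.26 and 3.06 FPKM.

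Scn1a, the pore on which fast-spiking interneurons depend most and whose loss causes Dravet syndrome, was higher in PS19 than in both other libraries. Its levels were 7.60 FPKM (WT), 12.9 (PS19) and 9.67 (PS19 Zbp1+/-), from 1461, 2494 and 1705 reads. The read ratio of PS19 to WT was 1.70 (1.60 to 1.82), and PS19 Zbp1+/- was lower than PS19 at 0.747 (0.702 to 0.795) and above WT at 1.27 (1.19 to 1.37). The log2 difference of Scn1a between PS19 Zbp1+/- and WT, 0.31 on the deposited scaling, was only 0.02 in the lowest setting. Corrected for GC content and transcript length, its difference between PS19 and WT was 0.58, just under 1.5-fold. Its share of the summed FPKM of the 10 sodium channel pores was 15.6% (WT), 22.3% (PS19) and 14.1% (PS19 Zbp1+/-), while that of Scn8a was 37.4%, 39.4% and 43.2%. Of 12 interneuron markers, 7 were higher and 5 lower in PS19 than in WT, with a median difference of 0.01. Scn1a shares a stretch of chromosome 2 with Scn3a, Scn2a, Scn9a and Scn7a, with gaps of 38.5 to 503 kb between adjacent genes, and the difference between PS19 and WT was 0.70 for Scn1a, -0.02 for Scn2a, 0.01 for Scn3a and -0.00 for Scn7a.

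The less typical pores were weakly expressed. Scn7a encodes Nax, a sodium sensor known from glia of the circumventricular organs, and took 128 reads (WT), 128 (PS19) and 53 (PS19 Zbp1+/-). It was level in the first pair and lower in PS19 Zbp1+/-, at a read ratio of 0.452 to PS19 (0.322 to 0.628). Scn9a, the pore of pain-sensing neurons, had 75, 70 and 83 reads, and its ratio of PS19 to WT was 0.931 (0.663 to 1.31), so a difference was not detectable at this depth. Scn10a, Cacna1f and Cacna1s never exceeded 5 reads.

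Among the sodium channel betas, Scn3b, which encodes beta3, was highest in WT, at 41.9 FPKM against 33.4 in PS19 and 33.9 in PS19 Zbp1+/-. Its difference between PS19 and WT was -0.32, and nearly level at -0.0046 when centred on the pan-neuronal markers. Scn2b, which encodes beta2, a subunit linked to the pore by a disulfide bond, was lowest in PS19, at 59.0, 52.6 and 69.3 FPKM, and highest there (0.15 above WT) when centred on the pan-neuronal markers.

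Scn4b, which encodes beta4, a subunit tied to the resurgent sodium current of fast-firing neurons, had the largest difference of the 28 tested subunits, on the log2(FPKM + 1) scale, both between PS19 and WT and between PS19 Zbp1+/- and PS19. It measured 4.39 FPKM (WT), 9.63 (PS19) and 1.86 (PS19 Zbp1+/-), from 377, 829 and 147 reads. PS19 was the highest and PS19 Zbp1+/- the lowest, below WT as well. The read ratio of PS19 to WT was 2.19 (1.94 to 2.49), that of PS19 Zbp1+/- to PS19 was 0.194 (0.161 to 0.231), and that of PS19 Zbp1+/- to WT was 0.425 (0.349 to 0.516). The log2 differences were 0.98, -1.89 and -0.91, and each kept its sign under the 10 alternative settings with a value for it, or 9 in the last pair. Scn4b (chromosome 9, 45138395 to 45154152) lies 8.32 kb from the end of Scn2b (45117782 to 45130070) on the same strand, and Scn2b differed from WT by only -0.16 in PS19.

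Hcn4, the HCN pore best known from the sinoatrial node and the thalamus, was also highest in PS19, but lowest in WT. From 41, 169 and 62 reads its levels were 0.388 FPKM (WT), 1.60 (PS19) and 0.640 (PS19 Zbp1+/-). The PS19 level was 4.11 times that of WT in reads (2.91 to 5.94), and PS19 Zbp1+/- was lower than PS19 at 0.401 (0.295 to 0.539) and above WT at 1.65 (1.09 to 2.51). Cacna2d4, an alpha2delta subunit known from retina, was also highest in PS19, with 31, 75 and 26 reads and a ratio of 2.41 to WT (1.57 to 3.80). It stayed under the 1 FPKM needed to be tested.

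Scn4b and Hcn4 are known for high expression in regions next to the hippocampus, so the levels of 12 thalamus and striatum markers are given beside them. The 12 markers were all detected in every library, and their FPKM summed to 55.0 (WT), 82.7 (PS19) and 34.7 (PS19 Zbp1+/-). Of the 11 tested between PS19 and WT, 6 were higher and 5 lower. Single markers are named here after their values were seen. The 4 that were 2-fold higher were the thalamic genes Prkcd (780, 2211 and 148 reads), Ramp3 (76, 268 and 52), Plekhg1 (285, 1121 and 160) and Tcf7l2 (149, 582 and 64). Each was highest in PS19 and lowest in PS19 Zbp1+/-, the same order as Scn4b. Lef1, another thalamic gene of the list (85, 155 and 42 reads), had this order too, under 1.5-fold between PS19 and WT. The striatal genes were mixed: Drd1 (82, 50 and 66 reads), Drd2 (102, 66 and 57) and Ppp1r1b (1319, 1277 and 704) were highest in WT. Adora2a (34, 44 and 49 reads), Pde10a (1006, 1113 and 1238) and Rgs9 (212, 191 and 241) were highest in PS19 Zbp1+/- in FPKM. Ppp1r1b was lowest in PS19 Zbp1+/-, as Scn4b was. Cacna1g, whose pore drives burst firing in thalamic relay cells, was level between PS19 and WT, at a read ratio of 1.04 (0.966 to 1.12). The part of neighbouring tissue in the Scn4b, Hcn4 and Scn1a values was not tested.

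**Figure D3:**
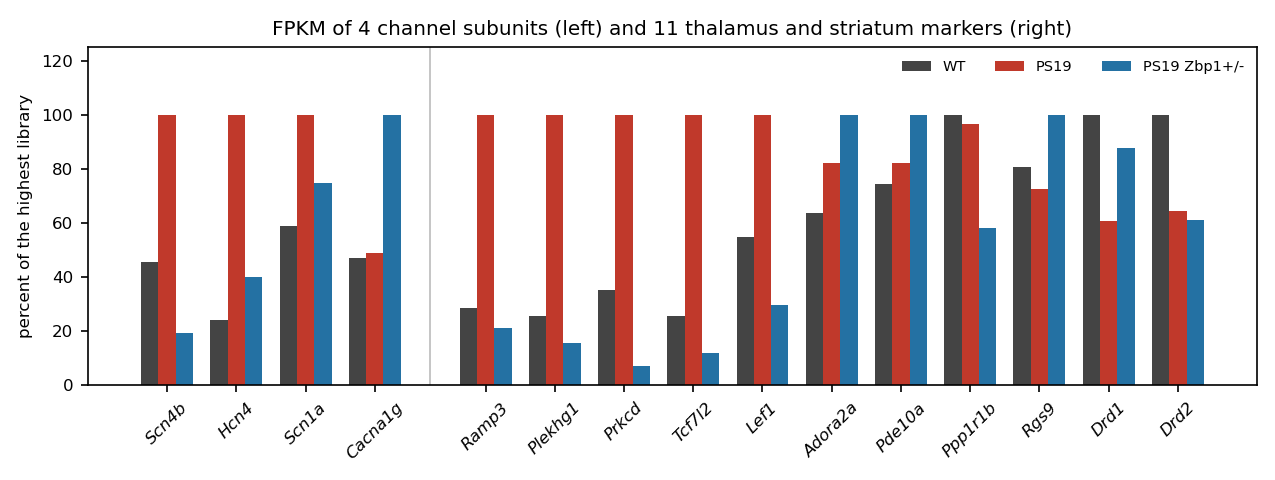
FPKM of Scn4b, Hcn4, Scn1a and Cacna1g (left) and of 11 of the 12 thalamus and striatum markers (right), each as a percent of its highest library, 1 bar per library without error. Scn4b, Hcn4, Scn1a, Ramp3, Plekhg1, Prkcd, Tcf7l2 and Lef1 are highest in PS19, and Cacna1g is highest in PS19 Zbp1+/-.

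The 3 T-type calcium channel pores were higher in PS19 Zbp1+/- than in both other libraries. Cacna1h had 13.2, 15.0 and 26.9 FPKM in WT, PS19 and PS19 Zbp1+/-, a read ratio of 1.79 to PS19 (1.70 to 1.88). Cacna1g had 8.38, 8.70 and 17.8 FPKM, with ratios of 2.04 to PS19 (1.92 to 2.18) and 2.12 to WT (1.99 to 2.26). Cacna1i had 8.01, 9.43 and 15.7 FPKM, and its ratio to PS19 was 1.66 (1.56 to 1.77). Summed, they came to 29.6 FPKM (WT), 33.1 (PS19) and 60.4 (PS19 Zbp1+/-). The balance among them barely moved, with Cacna1h at 44.6%, 45.3% and 44.6% of the sum. Relative to the pan-neuronal markers the 3 differences between PS19 Zbp1+/- and PS19 were 0.30, 0.45 and 0.18 for Cacna1h, Cacna1g and Cacna1i, still positive but under 1.5-fold, and between PS19 Zbp1+/- and WT they were 0.68, 0.71 and 0.60. The GC and length correction put them at 0.43, 0.69 and 0.31 against PS19 and TPM at 0.55, 0.73 and 0.44, so Cacna1h and Cacna1i were under 1.5-fold in both. Against WT, the lowest values over all settings were 0.53 for Cacna1h, 0.59 for Cacna1g and 0.45 for Cacna1i. The 1.5-fold calls of Cacna1h and Cacna1i against WT thus also depended on the setting.

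The high-threshold pores were less uniform. Cacna1b, the N-type pore of presynaptic terminals, had 11.7, 12.7 and 20.4 FPKM in WT, PS19 and PS19 Zbp1+/-, highest in the last at a read ratio of 1.61 to PS19 (1.53 to 1.71). Its difference of 0.65 from PS19 was under 1.5-fold with TPM (0.40), total reads (0.47), the GC and length correction (0.48) and centring (0.15). Its difference of 0.75 from WT was 0.40 in the lowest setting, also under 1.5-fold. Cacna1a, the P/Q-type pore on which fast release depends, had 13.9, 17.1 and 19.5 FPKM, lowest in WT. Cacna1e, the R-type pore, had 13.3, 13.1 and 16.8 FPKM, level between PS19 and WT at 0.983 (0.948 to 1.02); its higher level in PS19 Zbp1+/- than in PS19 (0.34) was -0.16 when centred on the pan-neuronal markers. For the L-type pores Cacna1c and Cacna1d, both PS19 libraries lay close together and above WT on the deposited scaling. Cacna1c had 4.54, 6.00 and 6.12 FPKM, with a ratio of PS19 to WT of 1.32 (1.24 to 1.41) and of PS19 Zbp1+/- to PS19 of 1.02 (0.96 to 1.08). Cacna1d had 3.62, 4.82 and 4.80 FPKM, with ratios of 1.33 (1.21 to 1.46) and 0.996 (0.911 to 1.09). Their differences between PS19 and WT were 0.34 and 0.33, under 1.5-fold, and centred on the pan-neuronal markers 0.65 and 0.64, past it. The centred differences between PS19 Zbp1+/- and PS19 were -0.48 and -0.51. Cacna1d shares 4.67% of its exonic bases with Chdh on the other strand.

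The promoters of 4 subunits, picked after their values were seen, are shown so that the base composition of some that were highest in PS19 can be compared with some that were highest in PS19 Zbp1+/-. Of the 36 members, 26 had at least 1 entry among RefSeq promoters (GRCm38.p6), in 36 windows, and the 250 bases before the RefSeq start were read. Scn1a and Hcn4 were highest in PS19, and Cacna1b and Cacna1i in PS19 Zbp1+/-. Capitals mark the GC box GGGCGG on either strand (CCGCCC on the other).
Scn1a, chr2:66440838-66441087, minus strand: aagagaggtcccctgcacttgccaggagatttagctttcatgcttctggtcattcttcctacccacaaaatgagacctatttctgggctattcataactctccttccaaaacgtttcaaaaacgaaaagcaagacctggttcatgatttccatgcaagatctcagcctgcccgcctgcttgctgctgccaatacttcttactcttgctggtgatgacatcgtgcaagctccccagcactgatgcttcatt
Hcn4, chr9:58822699-58822948, plus strand: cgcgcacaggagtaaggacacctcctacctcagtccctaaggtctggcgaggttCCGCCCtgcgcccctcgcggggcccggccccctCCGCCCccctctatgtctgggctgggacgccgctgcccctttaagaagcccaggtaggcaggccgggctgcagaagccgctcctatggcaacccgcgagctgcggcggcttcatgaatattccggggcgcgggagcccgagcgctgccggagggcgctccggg
Cacna1b, chr2:24763153-24763402, minus strand: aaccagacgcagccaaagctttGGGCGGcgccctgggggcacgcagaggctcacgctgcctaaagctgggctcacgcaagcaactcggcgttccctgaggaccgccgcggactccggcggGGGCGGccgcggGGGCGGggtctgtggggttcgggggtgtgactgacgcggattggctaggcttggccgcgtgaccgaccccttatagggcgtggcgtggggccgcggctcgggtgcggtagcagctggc
Cacna1i, chr15:80286988-80287237, plus strand: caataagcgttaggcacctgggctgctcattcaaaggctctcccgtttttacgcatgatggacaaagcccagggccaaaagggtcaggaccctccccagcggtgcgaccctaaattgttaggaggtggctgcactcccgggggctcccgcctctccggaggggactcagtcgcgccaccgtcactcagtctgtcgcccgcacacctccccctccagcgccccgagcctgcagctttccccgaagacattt
The Scn1a window is 46.8% GC with 4 CpG dinucleotides, against 71.2% and 25 for Hcn4, 72% and 29 for Cacna1b, and 62.4% and 16 for Cacna1i. Neither pair shared a count of GC boxes: there were 0 in Scn1a and 2 in Hcn4, 3 in Cacna1b and 0 in Cacna1i. Of the 36 member windows, 41.7% held a GC box, against 32.7% of all 32851 windows in the table, and the median GC content was 58.8% against 52.4%. The Scn4b window was 66% GC with 23 CpG and no GC box, and 229 of its bases lie inside the gene as deposited. A match of letters is a description and not a binding site.

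Of the calcium channel beta subunits, which bind the pore in the cytosol, Cacnb3 and Cacnb1 were lowest in PS19 and highest in PS19 Zbp1+/-. From 3205, 2483 and 4325 reads, Cacnb3 reached 46.3 FPKM (WT), 35.8 (PS19) and 68.1 (PS19 Zbp1+/-). Cacnb1 had the same order, at 31.4, 23.1 and 43.2 FPKM. PS19 had read ratios to WT of 0.773 (0.733 to 0.815) and 0.736 (0.693 to 0.783), and PS19 Zbp1+/- had ratios to PS19 of 1.90 (1.81 to 2.0) and 1.87 (1.76 to 1.98). Centred on the pan-neuronal markers their differences in the latter pair were 0.41 and 0.37, under 1.5-fold, and Cacnb1 was at 0.50 after the GC and length correction. Between PS19 and WT the centred differences of Cacnb3 and Cacnb1 were only -0.05 and -0.11. Cacnb4, the subunit mutated in the lethargic mouse, had 12.4, 12.5 and 10.8 FPKM and a ratio to PS19 of 0.865 (0.809 to 0.926). Its difference of -0.19 in that pair was -0.0023 after the GC and length correction and -0.69 centred. Its share of the beta sum was 13.2%, 16.5% and 8.43%. Cacnb4 shares 16% of its exonic bases with A430018G15Rik on the other strand, which had 0, 3 and 0 reads. Cacnb2 had 3.83, 3.94 and 5.77 FPKM, highest in PS19 Zbp1+/- except when centred on the pan-neuronal markers, where it differed from PS19 by -0.05.

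The alpha2delta subunits, which include the targets of gabapentin, were within 1.5-fold in each pair where tested on the deposited scaling. Cacna2d1 had 15.2, 12.9 and 15.7 FPKM in WT, PS19 and PS19 Zbp1+/-, and Cacna2d3 had 10.6, 8.81 and 10.1. Both were lowest in PS19, at read ratios to WT of 0.848 (0.806 to 0.892) and 0.832 (0.773 to 0.895), though centred on the pan-neuronal markers they were 0.09 and 0.07 above WT. Cacna2d2 had 3.96, 5.33 and 5.52 FPKM, lowest in WT, and centred on those markers it was past 1.5-fold between PS19 and WT at 0.66. Its share of the class was 13.2%, 19.4% and 17.5%. The summed level of the class was 29.9, 27.5 and 31.5 FPKM.

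**Figure D4:**
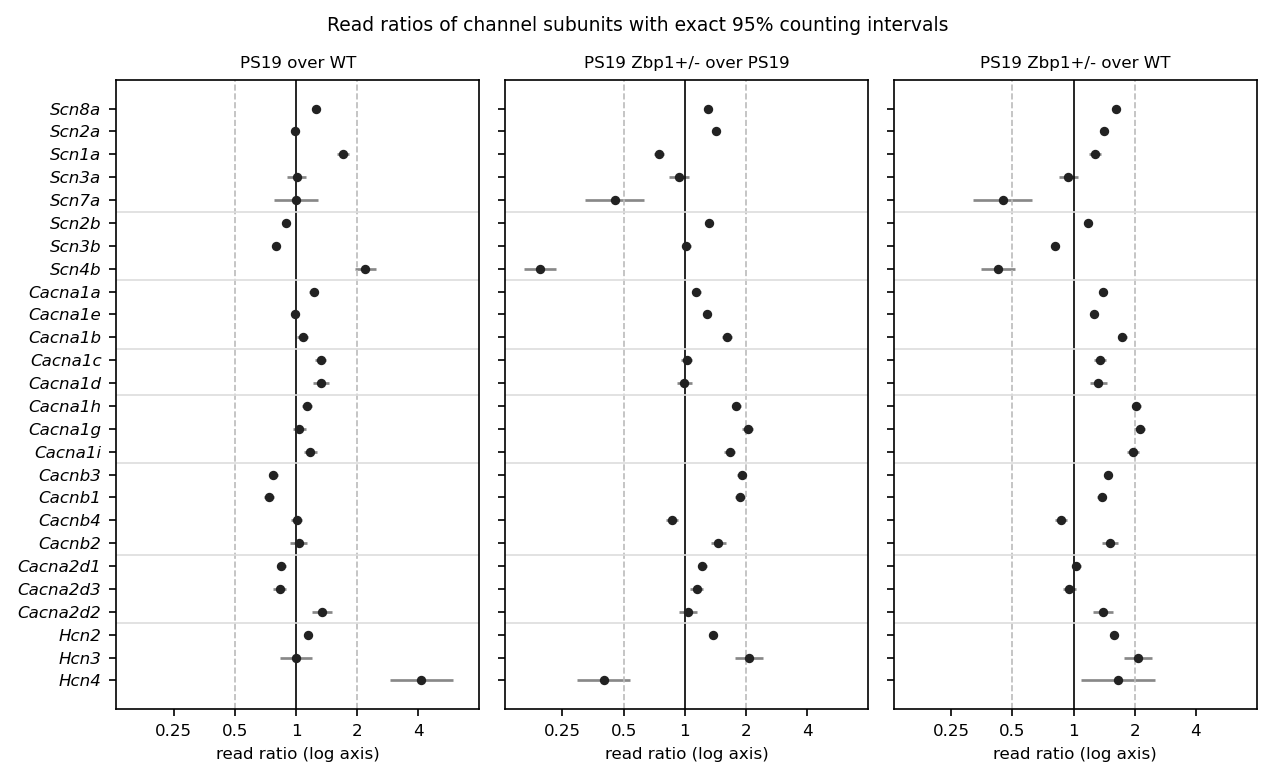
Read ratio per library size (log axis) of 26 of the 28 subunits in each pair of libraries, with exact 95% intervals that cover counting error only, a solid line at equal levels and dashed lines at 2-fold. Hcn4 and Scn4b lie beyond 2-fold in the left panel, Scn4b is at 0.194 in the middle panel, and the T-type pores lie near 2 in the right panel.

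Among the other HCN pores, Hcn2 is a main carrier of the h-current in the brain. It had 60.4, 69.0 and 95.2 FPKM in WT, PS19 and PS19 Zbp1+/-, and accounted for 87.6%, 87.9% and 85.6% of the HCN sum. Reads per library size stood at 1.14 between PS19 and WT (1.09 to 1.20) and at 1.38 between PS19 Zbp1+/- and PS19 (1.32 to 1.44), though relative to the pan-neuronal markers the latter difference turned to -0.04. The 1.5-fold call of Hcn2 between PS19 Zbp1+/- and WT was lost under the same 4 settings as that of Scn8a (0.32 to 0.50). Hcn3 had 3.38, 3.37 and 6.98 FPKM from 242, 242 and 459 reads, with a ratio of 2.07 to PS19 (1.77 to 2.43), and a difference of 0.37 from PS19 when centred, under 1.5-fold. It shares 17.1% of its exonic bases with Pklr on the opposite strand, and strandedness of counting is not given in the sources used here, though only 7, 1 and 0 reads were assigned to Pklr. On the deposited scaling Hcn2 and Hcn3 were highest in PS19 Zbp1+/-, and Hcn4 was highest in PS19.

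Proteins that anchor or modulate the channels were counted from 4 lists, on the deposited scaling. Of 16 sodium channel partners, which include ankyrins, spectrins and FGF homologous factors, 13 were higher and 3 lower in PS19 Zbp1+/- than in PS19, with a median of 0.19, where 6863 of all 12772 genes were higher and the pan-neuronal median was 0.50. Fgf11, a cytosolic modulator of sodium channels, was the one past 2-fold, with 535 WT, 567 PS19 and 1157 PS19 Zbp1+/- reads and a difference of 1.09 from PS19. The largest difference in the other direction was that of Cntn2, an axonal adhesion protein, at -0.73 (2379, 4219 and 2268 reads). Between PS19 and WT, 9 were higher and 7 lower, where 5887 of 12703 genes were higher, and the outermost were Cntn2 at 0.78 and Calm2, a calmodulin gene, at -0.64 (888, 568 and 590 FPKM). Between PS19 Zbp1+/- and WT, 14 were higher, led by Fgf11 at 1.16, and 2 lower, led by Calm2 at -0.59, where 6342 of 12436 genes were higher.

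Of 18 calcium channel partners tested, 16 were higher in PS19 Zbp1+/- than in PS19, with a median of 0.26, and 2 were lower, beside the same 6863 of 12772 genes and pan-neuronal median of 0.50. Cacng8, a member of the gamma family that serves AMPA receptors, had 63.1, 52.8 and 107 FPKM, with a read ratio to PS19 of 2.02 (1.92 to 2.13). Bassoon (Bsn), an active-zone scaffold, had 24.7, 31.6 and 51.2 FPKM and was 1.02 above WT in PS19 Zbp1+/-. The outermost in the other direction was Cacng5, at -0.64 from PS19 and -0.45 from WT. Between PS19 and WT, 9 were higher and 9 lower, from 0.92 for Rims3 (7.68, 15.5 and 12.9 FPKM), an active-zone protein, to -0.44 for Cacng3. On the log2(FPKM + 1) scale, all 4 genes of the NALCN sodium leak channel lay within 1.5-fold in each pair. They went from -0.17 for Unc80 between PS19 Zbp1+/- and PS19 to 0.58 for Unc79 between PS19 Zbp1+/- and WT. The read ratio of Unc79 in the latter pair was past 1.5-fold, at 1.61 (1.49 to 1.75). Nalcn, the pore, was at 7.53, 6.69 and 8.81 FPKM.

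The HCN partner list held 6 genes in the table, 5 of them tested. Pex5l, which encodes the HCN trafficking protein TRIP8b, had 14.8, 19.0 and 24.2 FPKM, a difference of 0.34 from PS19 and 0.67 from WT in PS19 Zbp1+/-. Between PS19 and WT the outermost were Flna, a filamin, at 0.48 and Kcne2 at -0.40. Kcne2, a small potassium channel subunit that also binds HCN pores and is abundant in choroid plexus, had 413, 306 and 2 reads. Its ratio of PS19 Zbp1+/- to PS19 was 0.00714 (0.000861 to 0.0260), and all 10 choroid plexus markers were at least 2-fold lower in the same pair.

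Other cell markers moved in the same pairs as the channel subunits. Between PS19 Zbp1+/- and PS19, 9 of 10 astrocyte markers (median -0.78), all 10 microglia markers (-1.15) and all 10 oligodendrocyte markers (-1.39) were lower, and 9 of 10 excitatory neuron markers (0.60) were higher. Summed microglia FPKM was 178 (WT), 627 (PS19) and 188 (PS19 Zbp1+/-), and summed oligodendrocyte FPKM was 922, 1649 and 599. No marker of these 4 lists was at 0 reads in any library. The part of cell composition in the channel differences was not tested.

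Transcript base composition moved with the differences of PS19 Zbp1+/-, and its part in them was not tested beyond the correction given here. The GC content of the longest transcript spanned 39.0% for Cacnb2 to 65.4% for Hcn2 among the subunits described. Across the 28 subunits, GC content and the difference between PS19 Zbp1+/- and PS19 had a Spearman rho of 0.40 and a Pearson r of 0.20, and across 12757 genes 0.28 and 0.22. Genes of 1 library pair share depth and composition, so these values are descriptions. The median difference of all genes went from -0.18 in the lowest of 10 GC bins to 0.31 in the highest, which held 7 of the 28 subunits, Cacna1h, Cacna1i, Cacnb1 and Cacnb3 among them. After subtracting the median of genes of like GC content and transcript length, the median of the subunits in this pair was 0.15 and Scn4b was at -2.13, Cacna1g at 0.69, Cacnb3 at 0.63 and Hcn3 at 0.63. The correction took Cacnb1 from 0.87 to 0.50, Cacna1h from 0.80 to 0.43, Cacna1i from 0.68 to 0.31 and Cacna1b from 0.65 to 0.48, all below 1.5-fold, and took Cacnb2 from 0.45 to 0.66 and Scn2a from 0.49 to 0.64, past it.

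**Figure D5:**
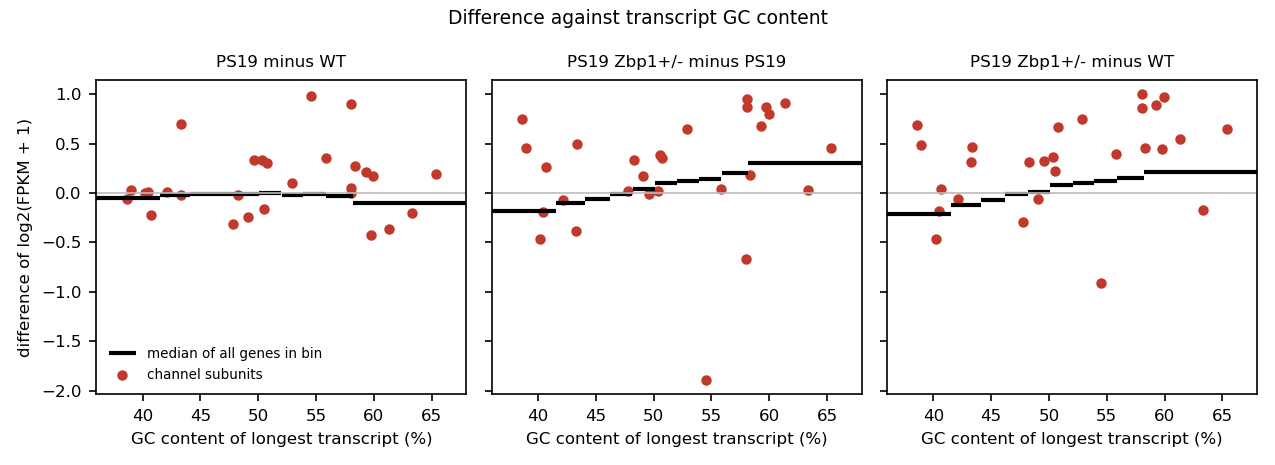
Difference of log2(FPKM + 1) against the GC content of the longest transcript for the channel subunits (red points) and the median of all genes in each of 10 GC bins (black lines) in the 3 pairs of libraries. The black steps climb from -0.18 to 0.31 in the middle panel and stay between -0.10 and -0.00 in the left panel.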

How the data were processed

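Hippocampal RNA of 3 genotypes, 1 library each, was profiled by RNA-seq. Extraction used TRIzol and library construction an NEB Next Ultra kit, per the labels' protocols. Per the submitters' processing notes, Trim Galore 0.6.5, STAR 2.5.3a and featureCounts 2.0.4 were used and the build named is mm39. The authors deposited FPKM values for 54532 genes, and the length the authors used (another deposited column, in base pairs) equalled the merged exons of GENCODE M21 for all 36 subunits. Gene positions in the table equalled GENCODE M21 (GRCm38) for 98.3% of the 54495 IDs shared with it and for all 36 subunits, so positions are given in GRCm38.

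Each FPKM times its gene length was a whole multiple of 1 step, within 0.1 read, in 100% of values, which gave whole reads and implied library sizes of 15826984 to 17287957. In WT and PS19 the recovered reads (16746085 and 16400328) were fewer than the implied sizes (17253479 and 17287957). In PS19 Zbp1+/- they were more, at 17109734 against 15826984. Read ratios are per implied library size with exact 95% intervals, which do not cover this choice of size. Ratios of PS19 Zbp1+/- to either other library are therefore higher than per total reads. For Cacna1a the difference from PS19 was 0.18 as deposited and 0.0025 with total reads. Where a library had 0 reads, its limit was 3 reads. A gene was tested if protein-coding and at 1 FPKM or more in one of the compared libraries, and the threshold was 2-fold, with 1.5-fold beside it, on log2(FPKM + 1). The members and lists were chosen with earlier results of these data known. All 36 subunits were counted, and named except for some genes that are not reported here; partner genes were named if past 2-fold or the most different of their list. Of 7 HCN partner symbols 6 were found. Cerebellar, vascular and oligodendrocyte precursor markers were also computed: their median differences between PS19 Zbp1+/- and PS19 were 0.52 (5 genes tested), -0.18 (10) and 0.05 (8). Scripts were tested on simulated data. The alternatives were 10 listed with those earlier results known and 2 chosen after seeing the data (the correction for GC content and transcript length, and read ratios). No count test was run, as there is 1 library a group. Software was matplotlib 3.10.9, scipy 1.17.1, numpy 2.4.6 and pandas 2.3.3 under Python 3.11.15.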

Additional observations from a re-analysis of the deposited data

How the results depend on the processing

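No paired analysis was possible because each genotype has 1 library, and for the same reason no library could be left out. Rescaling to TPM moved the median difference of all genes tested from -0.03 to 0.11 between PS19 and WT and from 0.04 to -0.25 between PS19 Zbp1+/- and PS19, and scaling by total reads moved the latter to -0.12.

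Percentages in brackets below are the shares of all genes past the same filter in the same setting. Between PS19 and WT, 0 subunits 2-fold higher (2.2%) became 2 with a pseudocount of 0.1 (4.26%), of 0.5 (3.06%), with TPM (5.24%) or with read ratios (4.51%). The count was 1 with total reads (2.33%), and 3 centred on the pan-neuronal markers (4.72%) or at a threshold of 1.5-fold (6.34%). The 3 subunits 1.5-fold higher (6.34%) became 8 when centred (17.8%), and 1 was 1.5-fold lower with TPM (2.84%). The median of 0.02 became 0.14 with TPM and 0.33 centred, and turned to -0.039 after correction for GC content and transcript length.

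Between PS19 Zbp1+/- and PS19, 0 subunits 2-fold higher (2%) became 2 with a pseudocount of 0.1 (3.37%) or read ratios (3.63%) and 8 at 1.5-fold (9.37%). The 1 subunit 2-fold lower (5.16%) became 2 with a pseudocount of 0.1 (9.27%), centred (14.8%) or at 1.5-fold (12.1%). It became 3 with TPM (13.6%) or read ratios (9.65%), and 0 at 4-fold (0.814%). The 8 subunits 1.5-fold higher (9.37%) became 4 with TPM (4.97%) and 0 centred (1.46%). The 2 lower (12.1%) became 5 with TPM (28.4%) or centred (39.2%) and 1 with a mean FPKM of at least 5 (6.85%). The median of 0.30 became 0.14 with no filter, 0.049 with TPM, 0.13 with total reads, 0.15 after the GC and length correction, and turned to -0.20 centred.

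Between PS19 Zbp1+/- and WT, 1 subunit 2-fold higher (1.07%) became 3 with a pseudocount of 0.1 (2.33%) or read ratios (2.61%) and 8 at 1.5-fold (6.71%). It became 0 with TPM (1.44%), total reads (0.628%), centring (0.354%), the GC and length correction (0.765%), or at 4-fold (0.0563%). The 0 that were 2-fold lower (2.28%) became 1 with a pseudocount of 0.1 (4.37%) or 0.5 (3.22%), TPM (6.34%), total reads (3.01%) or centring (4.71%). The same count was 1 with the correction (2.04%) or a 1.5-fold threshold (7.12%), and 2 with read ratios (4.78%). The 8 subunits 1.5-fold higher (6.71%) became 3 centred (1.82%), 4 corrected (3.9%) and 5 with total reads (3.87%). The 1 lower (7.12%) became 2 with a pseudocount of 0.1 (10.6%) or 0.5 (8.97%), TPM (17.1%) or read ratios (11%), 3 centred (19.9%) and 0 with a mean FPKM of at least 5 (4.57%). The median of 0.39 became 0.10 centred and 0.12 corrected. The cause of these shifts was not tested, beyond the scaling that each alternative applies. No subunit past 1.5-fold on the deposited scaling changed sign in that pair under any alternative that gave it a value. Scn2a and Cacnb2, past it after the GC and length correction between PS19 Zbp1+/- and PS19, were at -0.01 and -0.05 when centred. Members under about 100 reads, such as Hcn4 in WT, are limited by depth.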
